A study of Homo sapiens with 6 samples.

Results

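The DEAD-box and DEAH-box helicases are enzymes that use ATP to open RNA duplexes or to strip proteins from RNA, and are named after a short amino acid motif that they share. The genes described here were chosen by symbol: every gene whose annotated symbol is DDX or DHX followed by a digit. That gave 56 of the 19775 genes measured, 39 named DDX and 17 named DHX, of which 51 encode proteins and 5 are antisense or otherwise derived transcripts that carry a helicase gene's name. Each gene was represented by the probe set (a group of short probes for 1 transcript) with the highest mean over all 6 arrays among those annotated to 1 gene. The measured level entered the choice only there, and the difference between the groups did not.

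Helicases of this family act at nearly every step in the life of an RNA. In the nucleolus they remodel the precursor of ribosomal RNA and release small nucleolar RNAs as ribosomal subunits form. In the nucleus they drive the rearrangements of the spliceosome, and in the cytoplasm they act in export, translation, storage and decay of mRNA. The members were therefore placed in role classes from general knowledge: 14 nucleolar, 10 splicing, 9 cytoplasmic, 5 nuclear with several roles, 4 germ line, 3 RNA sensing, 2 mitochondrial, 1 DNA helicase and 3 whose role is less settled, beside the 5 derived transcripts.

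Total RNA was measured on 6 single-colour Affymetrix arrays, 3 from LNCaP cells given small interfering RNA (siRNA) against PCARNEQ (siPCARNEQ) and 3 from LNCaP cells given siRNA against EGFP as the control (siEGFP). LNCaP is an established human prostate cancer line, all 6 arrays come from that line, and EGFP is a fluorescent protein that human cells lack. The labels give no dose, no time after treatment and no count of separate siRNAs or cultures, so the spread behind every p-value is that between arrays of a group and may be technical. In bulk RNA, fewer cells of a type and less RNA per cell cannot be told apart. PCARNEQ was paired with 0 probe sets, so the level of the target was not analysed here.

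Every value below is a log2 intensity, on which a difference of 1 is a doubling, and every change is siPCARNEQ minus siEGFP. A gene was called lower or higher where limma's 2-sided test over all 19775 genes gave a Benjamini-Hochberg adjusted p below 0.05. The median intensity was 130.8 on every array, or 7.03 on the log2 scale. Precision was limited by having 3 arrays a group. Array 1 stood apart in both groups: the SD of the log2 difference across probe sets was 0.136 and 0.129 between arrays 2 and 3 of siPCARNEQ and siEGFP, against 0.371 to 0.373 and 0.232 to 0.239 where array 1 entered. For ACTB, the control probe set at the 3′ end minus that at the 5′ end, a difference that grows as RNA is degraded, was 1.84 (log2) on siPCARNEQ array 1 and 0.63 to 0.78 on the other 5 arrays. All 6 measured luminal prostate markers lay above the array median on every array. Their mean log2 level was 13.01 to 13.12 in siPCARNEQ against 12.36 to 12.43 in siEGFP, with 5 of 6 higher. The mean level was 6.24 to 6.34 against 6.05 to 6.15 for 4 basal markers (1 higher), 5.23 to 5.25 against 5.26 to 5.33 for 4 neuroendocrine markers (0 called), 7.56 to 7.67 against 7.23 to 7.39 for 7 fibroblast and smooth muscle markers (2 higher, 1 lower) and 6.32 to 6.38 against 6.35 to 6.49 for 6 immune and endothelial markers (0 called). Array intensity has no true 0, and the part of these markers in the results below was not tested.

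Of the 56 members, 18 were lower, 6 were higher and 32 did not pass. That is 32.1% lower, where 12.3% of all genes were, and 10.7% higher, where 15.2% of all genes were. The members were mostly bright: 45 of them, with all 14 nucleolar helicases, lay at or above the median level of all genes. The share called among genes of like level was not counted. The median change of the members was -0.13, with 36 changes below 0 and 20 above, beside a median of -0.01 over all genes. The groups did not overlap, with every siPCARNEQ array below every siEGFP array, for 26 members, a pattern held by 21.7% of all genes. The opposite order held for 8 members, against 22.3% of all genes. At an unadjusted p below 0.05, 22 members were lower, as were 17.6% of all genes, and 7 were higher, as were 20.1% of all genes. Only DHX33 and DDX21 fell by at least 2-fold, and both are nucleolar.

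The nucleolar class held most of the falls. Of its 14 members, 10 were lower and 0 were higher, both by the adjusted limma test and at an unadjusted p below 0.05, with a median change of -0.41. The 10 splicing helicases had 3 lower and 0 higher with a median of -0.11, and the 9 cytoplasmic helicases had 3 lower and 1 higher with a median of -0.12. The 42 members outside the nucleolar class together had 8 lower (19.0%) and 6 higher (14.3%), with a median of -0.04. The difference between classes is given as counts and medians and was not itself tested. The members and the earlier results of these data were known when the classes were drawn up, and a fall of ribosome biogenesis genes was among those results.

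**Figure D1:**
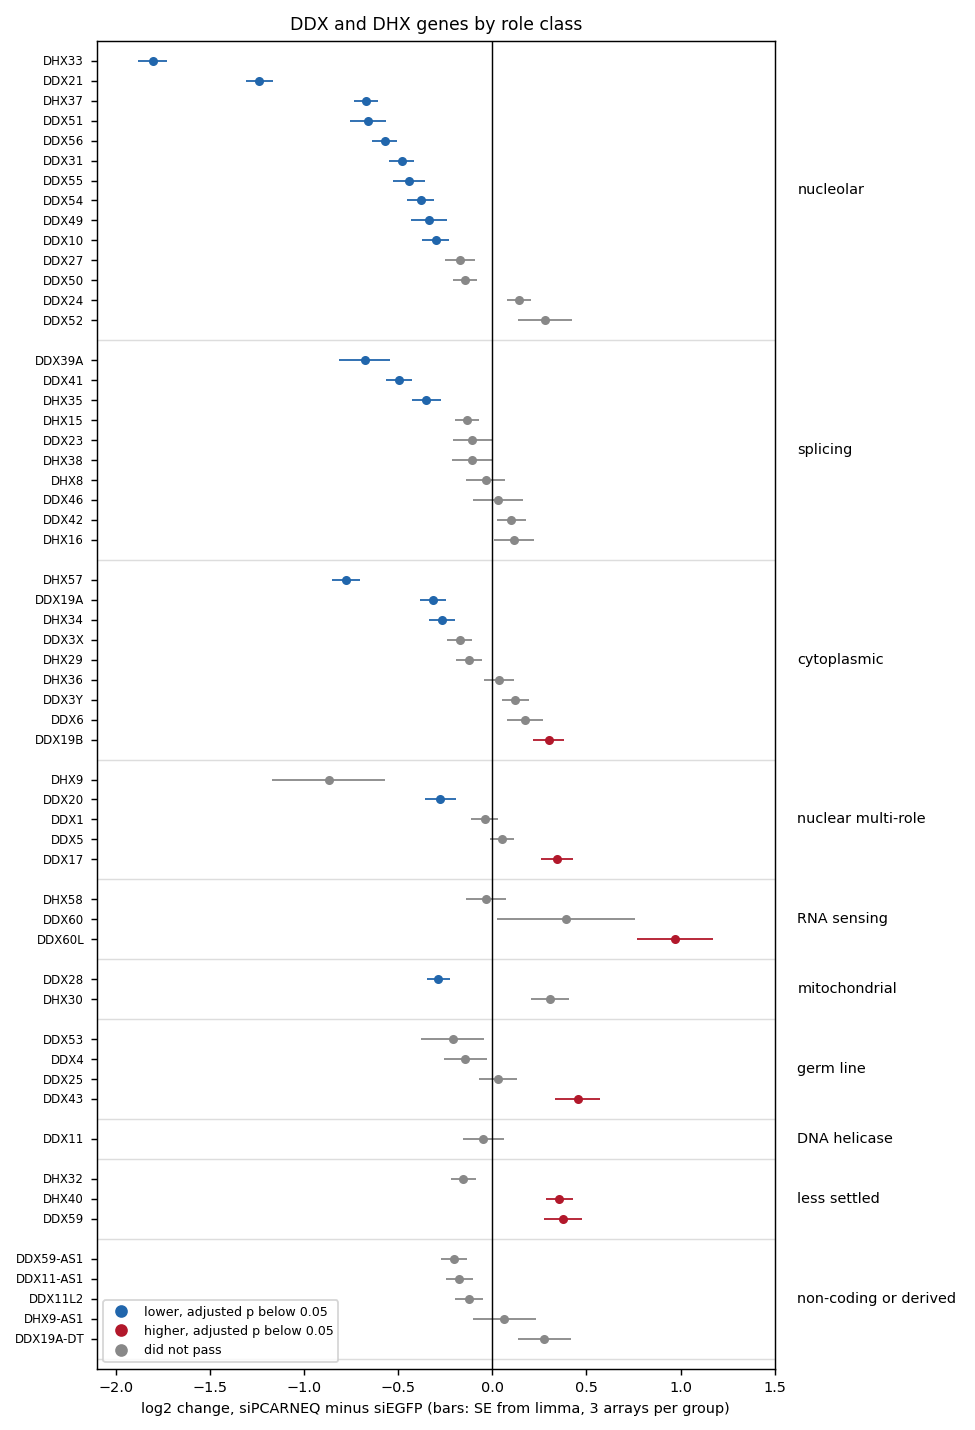
Log2 change of the 56 members (siPCARNEQ minus siEGFP, horizontal axis), grouped by role class and ordered by size, with points for the fitted change, bars for its standard error (SE) and colour for the call. In the nucleolar class 10 of 14 points are called lower, from DHX33 at -1.80 to DDX10 at -0.30, while the splicing and cytoplasmic classes each hold 3 called lower and most points near 0.

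The count of calls depended on how array 1 and the replicate numbers were treated. Under the replicate block, which fits the array number as a term, 19 members were lower (15.3% of all genes) and 9 higher (19.2%), and the nucleolar class had 10 lower and 1 higher. When arrays 2 and 3 were merged into 1 replicate per group, 8 members were lower, where 5.26% of all genes were, and 0 were higher, where 6.05% were. Those 8 were 6 nucleolar helicases, 1 splicing helicase and 1 cytoplasmic helicase. Arrays 2 and 3 of each group alone gave 25 members lower (18.8% of all genes) and 11 higher (22.8%). Leaving out 1 array also moved the calls over all genes. Without siEGFP array 3, 11 members were lower (8.38% of all genes) and 2 higher (10.4%). Without siPCARNEQ array 3, 12 were lower (9.73%) and 3 higher (11.8%). Without siEGFP array 2, 14 were lower (8.39%) and 2 higher (10.3%). Without siPCARNEQ array 1, the array with the largest ACTB difference, 19 were lower (14.5%) and 7 higher (17.4%).

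DHX33, a DEAH-box helicase needed for transcription of ribosomal RNA genes, had the largest fall. Its log2 intensity was 9.84, 9.79 and 9.78 on siPCARNEQ arrays 1 to 3 and 11.73, 11.53 and 11.55 on siEGFP arrays 1 to 3. The groups lay far apart compared with their spread, and the siPCARNEQ intensity was 28.6% of the siEGFP intensity. The change was -1.80 (SE 0.08, adjusted p = 2.93e-05, n = 3 arrays per group, limma).

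DDX21, a nucleolar helicase that takes part in ribosomal RNA transcription and processing, read 11.84, 11.92 and 12.02 in siPCARNEQ and 13.17, 13.16 and 13.16 in siEGFP. The control arrays were almost identical, and each siPCARNEQ array lay more than 1 log2 unit below them. The intensity was 42.4% of the control, a change of -1.24 (SE 0.07, adjusted p = 7.2e-05, limma).

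Next in size within the nucleolar class were 4 helicases that act in assembly of the ribosomal subunits. DHX37, which acts on the small subunit, read 8.05, 8.12 and 8.12 in siPCARNEQ against 8.76, 8.78 and 8.77 in siEGFP, a change of -0.67 (SE 0.06). DDX51, which acts in large-subunit RNA maturation, read 7.92, 7.85 and 7.71 against 8.63, 8.46 and 8.37, a change of -0.66 (SE 0.09). In both genes no siPCARNEQ array reached a siEGFP array. DDX56, a factor of large-subunit assembly, read 10.04, 9.93 and 9.95 against 10.52, 10.55 and 10.56, a change of -0.57 (SE 0.07). DDX31, whose yeast counterpart also serves the large subunit, read 8.76, 8.83 and 8.86 against 9.32, 9.31 and 9.25, a change of -0.48 (SE 0.07). Adjusted p-values of these 4 lay between 0.000391 and 0.00209 (limma), their groups did not overlap, and their intensities were 62.8% to 71.7% of the control. DHX33, DDX21, DHX37, DDX51, DDX56 and DDX31 are also the 6 nucleolar helicases that were lower when arrays 2 and 3 were merged.

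Smaller falls were called for 4 further nucleolar helicases. DDX55 changed by -0.44, DDX54 by -0.38, DDX49 by -0.33 and DDX10 by -0.30, with adjusted p-values of 0.00776, 0.00665, 0.0378 and 0.0202 (limma). DDX49 and DDX10 were not called without siPCARNEQ array 3, siEGFP array 2 or siEGFP array 3, each of which left 8 nucleolar helicases lower, and DDX49 was also lost without siEGFP array 1 or siPCARNEQ array 2. Over the whole class, leaving out any 1 array gave 8 to 11 lower.

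Among the nucleolar helicases, 4 did not pass. DDX27, which acts in pre-ribosomal RNA processing, had a change of -0.17 (adjusted p = 0.17), and DDX50, the close relative of DDX21, had a change of -0.14 (adjusted p = 0.156). DDX24, the nucleolar member whose probe set had the highest mean, read 12.99, 12.92 and 13.00 in siPCARNEQ against 12.80, 12.86 and 12.83 in siEGFP. Its siPCARNEQ arrays all lay above the siEGFP arrays, but the difference of 0.14 (SE 0.06) did not pass (adjusted p = 0.153). DDX52, a small-subunit factor, read 10.18, 9.69 and 9.73 against 9.73, 9.51 and 9.52. Its highest value was on siPCARNEQ array 1, its groups overlapped at 9.69 and 9.73, and the difference of 0.28 had an adjusted p of 0.199, or 0.0385 with the replicate number as a block (limma). Without siPCARNEQ array 1 the DDX52 difference was 0.12.

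**Figure D2:**
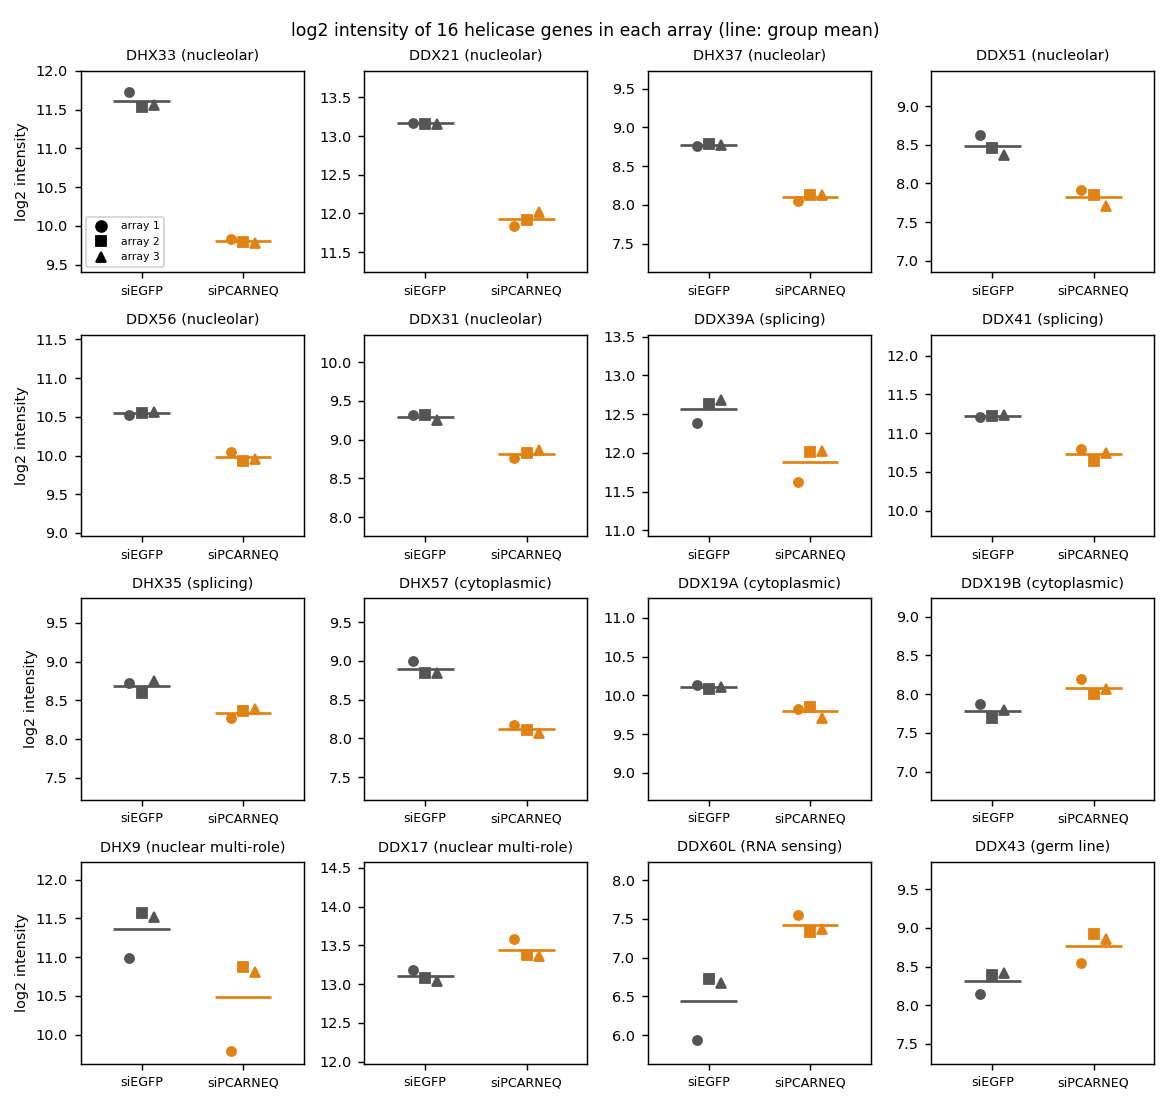
Log2 intensity (vertical axes) of 16 helicase genes on each of the 3 siEGFP and 3 siPCARNEQ arrays, with a symbol per array number and a line at the group mean; every panel spans at least the same number of log2 units. In the 6 nucleolar panels every siPCARNEQ point lies below every siEGFP point, and for DHX9 array 1 of each group (9.79 and 10.99) lies below arrays 2 and 3.

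Of the 3 splicing helicases that fell, DDX39A had the largest change. DDX39A, a helicase of mRNA export and splicing, read 11.62, 12.02 and 12.03 in siPCARNEQ against 12.39, 12.63 and 12.68 in siEGFP. Array 1 was the lowest of its group on both sides, and the groups did not overlap. The change was -0.68 (SE 0.13, adjusted p = 0.00848), and it missed the threshold once arrays 2 and 3 were merged (adjusted p = 0.0656, limma).

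DDX41, a helicase of the catalytic spliceosome that is mutated in some myeloid leukaemias, read 10.79, 10.64 and 10.74 in siPCARNEQ against 11.21, 11.22 and 11.24 in siEGFP. All siPCARNEQ arrays were lower, by -0.50 (SE 0.07, adjusted p = 0.0018), and this was the splicing call that held once arrays 2 and 3 were merged (adjusted p = 0.0473, limma). DHX35, found in catalytic spliceosomes, read 8.27, 8.36 and 8.39 against 8.73, 8.60 and 8.75. Its groups did not overlap either, with a change of -0.35 (SE 0.08, adjusted p = 0.012). That call was lost without siEGFP array 3 (adjusted p = 0.0576). A second probe set of DHX35 had a change of -0.50, with siPCARNEQ array 1 at 7.23 against 8.44 and 8.41 on arrays 2 and 3. Another, at log2 5.15 to 5.48 on all arrays and so below the array median, had a change of 0.02. Neither of these probe sets passed.

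The 7 other splicing helicases did not pass, with changes from -0.13 to 0.12. DHX15, which takes spliceosomes apart after splicing and also serves ribosome assembly, had the highest probe-set mean of the class and read 13.70, 13.75 and 13.75 against 13.86, 13.89 and 13.85. Its siPCARNEQ arrays all lay lower, but by only -0.13 (SE 0.06, adjusted p = 0.165). The helicases that drive the main rearrangements of the spliceosome were among these 7: DDX46 had a change of 0.03, DDX23 of -0.11, DHX16 of 0.12, DHX38 of -0.11 and DHX8 of -0.04. In all 5 the values of the groups overlapped. DDX42, an SF3b-associated helicase, completed the class with a change of 0.10.

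In the cytoplasmic class DHX57, whose role is less well known, had the largest fall. It read 8.17, 8.11 and 8.07 in siPCARNEQ against 8.99, 8.85 and 8.85 in siEGFP, and the groups stood clearly apart at 58.3% of the control intensity. The change was -0.78 (SE 0.07, adjusted p = 0.000385), and it was the cytoplasmic call that held once arrays 2 and 3 were merged (adjusted p = 0.0175, limma). Its other probe set, below the array median on all arrays, had a change of 0.17 that did not pass, and the mean of both DHX57 probe sets did not pass either (change -0.30, adjusted p = 0.0785).

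DDX19A and DDX19B encode near-identical helicases of mRNA export at the nuclear pore and were called in opposite directions. DDX19A read 9.83, 9.85 and 9.71 in siPCARNEQ against 10.14, 10.08 and 10.11 in siEGFP, a change of -0.32 (SE 0.07, adjusted p = 0.0129). DDX19B read 8.19, 8.0005 and 8.06 against 7.87, 7.70 and 7.80, a change of 0.30 (SE 0.08, adjusted p = 0.0322). Groups did not overlap for either gene, but transcripts of such close copies can share probes, so both values are uncertain. Other probe sets of DDX19A had changes of -0.18 and -0.26 and did not pass. DDX19B had only 1 probe set, which did not pass when adjusted over all probe sets (adjusted p = 0.0529, limma). Without siEGFP array 3 the adjusted p was 0.0545 for DDX19A and 0.0956 for DDX19B, and without siPCARNEQ array 3 it was 0.054 and 0.0795. The DDX19B call was also lost without siEGFP array 2 (adjusted p = 0.124).

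DHX34, a helicase of nonsense-mediated mRNA decay, read 8.14, 8.08 and 7.99 in siPCARNEQ against 8.31, 8.35 and 8.36 in siEGFP. The change was small at -0.27 (SE 0.07, adjusted p = 0.0243), and leaving out array 2 or array 3 of either group ended the call (adjusted p = 0.0688 to 0.0929). With siPCARNEQ array 3 or siEGFP array 3 left out, 1 cytoplasmic helicase in place of 3 was lower. DDX3X, a translation helicase with the highest probe-set mean of the class, read 13.21, 13.18 and 13.10 against 13.29, 13.34 and 13.37. Its groups did not overlap, and the change of -0.17 (SE 0.07) did not pass (adjusted p = 0.098). The remaining 4 did not pass: DHX29, which helps scanning ribosomes, at -0.12, DHX36, which opens G-quadruplexes, at 0.03, DDX3Y, the close copy of DDX3X, at 0.12, and DDX6, a helicase of mRNA storage and decay, at 0.17, or 0.087 without siPCARNEQ array 1.

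Nuclear helicases with several roles moved in different directions. DDX17, a coactivator and microRNA-processing factor and the member of this class with the highest probe-set mean, read 13.59, 13.37 and 13.37 in siPCARNEQ against 13.18, 13.08 and 13.04 in siEGFP. It rose by 0.34 (SE 0.09, adjusted p = 0.0228), a call lost without siEGFP array 2 (adjusted p = 0.0864) or array 3 (adjusted p = 0.0912). DDX20, part of the SMN complex that assembles splicing particles, read 10.44, 10.33 and 10.27 against 10.73, 10.55 and 10.59, a change of -0.28 (SE 0.08, adjusted p = 0.0424). The DDX20 groups did not overlap, but the call was lost on leaving out any 1 array other than siPCARNEQ array 1 (adjusted p = 0.0768 to 0.137). DDX1 and DDX5, the close relative of DDX17, had changes of -0.04 and 0.05 and did not pass. DDX5 was read by only 1 probe set, at 8.22 to 8.33 over the arrays, far below the values of DDX17.

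DHX9, a helicase of transcription, RNA processing and double-stranded RNA, was named after its values were seen. It read 9.79, 10.87 and 10.80 in siPCARNEQ against 10.99, 11.58 and 11.51 in siEGFP. Every siPCARNEQ array lay below every siEGFP array, and array 1 was the lowest of its group on both sides. The change of -0.87 (SE 0.30) did not pass (adjusted p = 0.0716), but the replicate block brought it past the threshold (adjusted p = 0.00263, limma). Without siPCARNEQ array 1 the change was -0.52 (adjusted p = 0.0715). A second probe set of DHX9 fell by 0.60 on the log2 scale and passed over all probe sets (adjusted p = 0.0146), and another, with a change of -1.03, did not (adjusted p = 0.203). SiPCARNEQ array 1, the array with the ACTB difference of 1.84, read 7.65 on that last probe set against 9.42 and 9.29 on arrays 2 and 3. The part of RNA quality in these values was not tested.

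Helicases of RNA sensing are induced by interferon, and a part of interferon in these values was not tested. DDX60L had the largest rise of all members. It read 7.55, 7.32 and 7.37 in siPCARNEQ against 5.94, 6.72 and 6.67 in siEGFP, so the control arrays lay below the array median and the siPCARNEQ arrays above it. The change was 0.97 (SE 0.20, adjusted p = 0.011), 1.61 in array 1 and 0.65 in arrays 2 and 3, and it missed the threshold once arrays 2 and 3 were merged (adjusted p = 0.052, limma). DDX60, its neighbour and near copy, read 8.32, 9.28 and 9.18 against 7.78, 8.84 and 8.98. These groups overlapped because array 1 was low in both, and the change of 0.39 had an adjusted p of 0.491, or 0.0157 with the replicate number as a block. The size of the DDX60 change rested on single arrays: it was 0.016 without siEGFP array 1, 0.22 without siPCARNEQ array 2, 0.62 without siEGFP array 3 and 0.70 without siPCARNEQ array 1, and passed in none of these fits. DHX58, a regulator of viral RNA sensing, had a change of -0.03. IFIH1, an RNA sensor outside the symbol rule, had one of -0.09, and neither passed. RIGI, the RNA sensor formerly named DDX58, also lies outside the rule. It has 3 probe sets, and its values are not given here.

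Among the mitochondrial helicases DDX28, a factor of mitochondrial ribosome assembly, read 9.78, 9.82 and 9.77 in siPCARNEQ against 10.08, 10.05 and 10.09 in siEGFP. It fell by 0.29 on the log2 scale (SE 0.06, adjusted p = 0.0127), a call lost without siPCARNEQ array 3 (adjusted p = 0.0536) or siEGFP array 3 (adjusted p = 0.0599). DHX30, a helicase of mitochondrial RNA granules, read 11.79, 11.51 and 11.58 against 11.46, 11.24 and 11.27. Its change of 0.30 (SE 0.10) did not pass (adjusted p = 0.0637), although it did with the replicate number as a block (adjusted p = 0.0119) and without siEGFP array 1 (adjusted p = 0.0459). The probe sets of DHX30 disagreed, since a further one was called lower with a change of -0.29 (adjusted p = 0.0423 over all probe sets).

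Germ line helicases were mostly at or near background: DDX4, DDX25 and DDX53 lay below the array median on all 6 arrays. DDX43, a cancer/testis antigen, was the exception and read 8.54, 8.92 and 8.85 in siPCARNEQ against 8.15, 8.39 and 8.41 in siEGFP. It rose by 0.45 (SE 0.12, adjusted p = 0.03), and the call was lost on leaving out any 1 array other than siPCARNEQ array 1 (adjusted p = 0.0597 to 0.094). Of the helicases with a less settled role, DHX40 read 11.77, 11.78 and 11.73 against 11.50, 11.37 and 11.34, a rise of 0.36 (SE 0.07, adjusted p = 0.00896). DDX59 read 9.43, 9.67 and 9.50 against 8.996, 9.25 and 9.22, a rise of 0.38 (SE 0.10, adjusted p = 0.0291) that was lost on leaving out any 1 array other than siPCARNEQ array 1 (adjusted p = 0.0554 to 0.0905). DHX32 had a change of -0.15 and did not pass.

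DDX11, the DNA helicase of sister chromatid cohesion, read 9.56, 9.63 and 9.71 in siPCARNEQ against 9.46, 9.79 and 9.80 in siEGFP. The groups overlapped and the change of -0.05 did not pass (adjusted p = 0.796). The 5 derived transcripts did not pass either, with changes from -0.20 to 0.28, and 3 of them lay below the array median on every array. DHX9-AS1, the derived transcript with the highest probe-set mean, read 8.32, 7.71 and 7.72 against 7.74, 7.94 and 7.88. Its change was 0.06 over all arrays and -0.19 (adjusted p = 0.0272) in arrays 2 and 3 alone, and siPCARNEQ array 1 held its highest value. Probe sets that several genes share were not used, which leaves out DDX12P, DDX39B and DDX47.

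**Figure D3:**
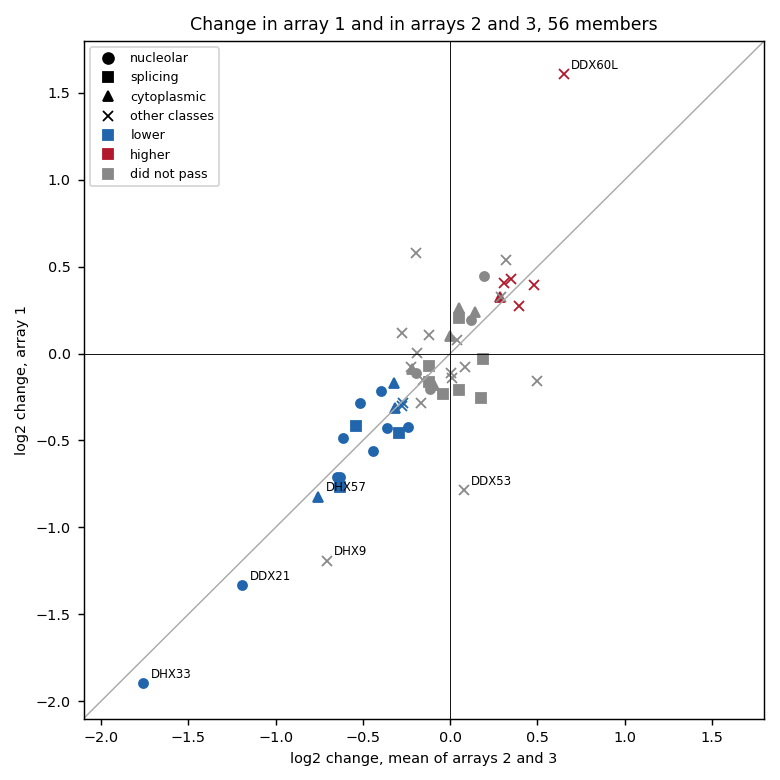
Log2 change of the 56 members in array 1 of each group (vertical axis) against the mean change in arrays 2 and 3 (horizontal axis), with shapes for role classes, colours for the call and a line of equality. All 18 members called lower lie below 0 on both axes and all 6 called higher lie above 0 on both, as must be where groups do not overlap. DDX60L (1.61 and 0.65) and DHX9 (-1.19 and -0.71) lie farther from 0 in array 1.

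The changes in array 1 and in arrays 2 and 3 had the same sign for all 18 members called lower and all 6 called higher. This was bound to be so, since the groups did not overlap in any of these members. The median change of the nucleolar class was -0.42 in array 1 and -0.42 in arrays 2 and 3. It was -0.22 and -0.08 for the splicing class, and -0.09 and -0.09 for the cytoplasmic class.

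Probe sets that were not used to represent a gene gave a second reading of the same RNA. There were 72 of them for 37 members, 128 probe sets in all. Calls here were adjusted over all 54613 probe sets, of which 8.61% were lower and 9.92% higher. Of the 24 other probe sets of members called lower, 11 were lower, 0 were higher and 21 had a change below 0. For the nucleolar helicases that were called lower, 12 of 13 other probe sets had a change below 0 and 7 were called lower. The second probe set of DHX33 had a change of -1.69, that of DDX21 -1.45, that of DHX37 -0.40, and further ones of DDX31 and DDX51 -0.73 and -0.58. Others of DDX51, DDX31, DDX54 and DDX49 had changes of -0.16, -0.12, -0.07 and -0.06 that did not pass, nor did that of DDX10 at -0.30. The only change above 0 was that of a DDX56 probe set, at 0.06, and the mean of all DDX56 probe sets did not pass (change -0.26, adjusted p = 0.0973). Of the 8 other probe sets of members called higher, 0 were called in either direction and 6 had a change above 0. Over all probe sets of DDX17 the mean change was 0.22 and did not pass (adjusted p = 0.262), and the second probe set of DDX60L, at 0.31, did not pass either. Among members that did not pass, a second probe set of DDX46 was higher by 0.36 (adjusted p = 0.0244). DDX3X had other probe sets with changes of -0.51, -0.76 and -0.80 that did not pass, in which siPCARNEQ array 1 was the lowest of all 6 arrays.

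**Figure D4:**
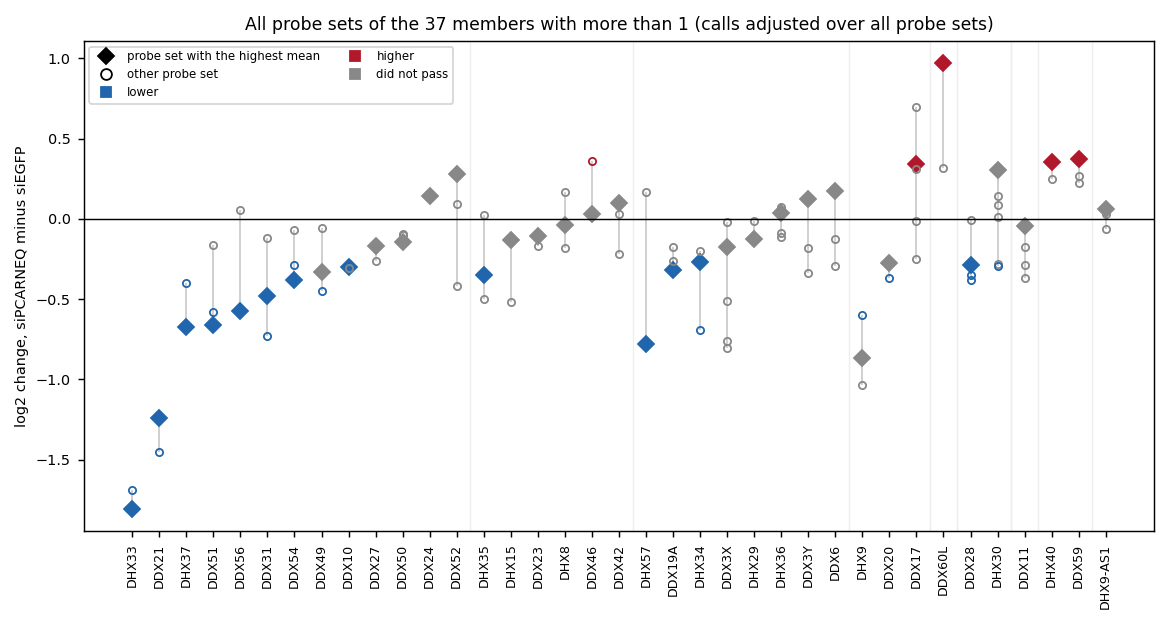
Log2 change (siPCARNEQ minus siEGFP, vertical axis) of every probe set of the 37 members with more than 1, in order of role class, with diamonds for the probe set with the highest mean, open circles for the others and colour for the call over all probe sets. Probe sets of DHX33 lie at -1.80 and -1.69 and those of DDX21 at -1.24 and -1.45, whereas those of DHX30 and DDX17 lie on both sides of 0.

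Close relatives within the family could be compared on the same arrays, in 4 pairs chosen after the values were seen. The log2 difference between DDX21 and its neighbour DDX50 was 1.57 ± 0.05 in siEGFP and 0.48 ± 0.11 in siPCARNEQ (SD, n = 3 arrays), a change of -1.09. The difference within a group does not give the relative level of the genes, which are read by different probe sets. The difference between DDX19A and DDX19B changed by -0.62, that between DDX17 and DDX5 by 0.29 and that between DDX60L and DDX60 by 0.58. The 2-sided exact permutation p was 0.1 for the first 3 pairs (0.133 adjusted over 4 pairs) and 0.2 for DDX60L and DDX60, and groups of 3 arrays cannot give a p under 0.1, so these values are a description.

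Promoter sequence was read for members that fell together, because ribosome biogenesis genes are known to carry the E-box CACGTG, the site bound by MYC and related factors. RefSeq start-site windows on GRCh38.p14, from 250 bases before to 50 after a gene's start, matched 51 of the 56 members. DDX11L2, DDX49, DDX52, DHX33 and DHX58 had no window, so the counts below are over members with one. CACGTG reads the same on both strands. It lay in 7.256% of all 35116 windows and in 10.87% of the 15384 measured genes with a window, taking a gene as holding it where any of its windows did. It was found in 10 of the 51 members: in 4 of 11 nucleolar helicases (DDX21, DDX31, DDX54 and DHX37), 1 of 10 splicing helicases (DHX35) and 1 of 9 cytoplasmic helicases (DHX34), and in DDX5, DDX25, DHX32 and DHX40. Of these 10, DDX21, DDX31, DDX54, DHX37, DHX35 and DHX34 were called lower and DHX40 was called higher. Of all 56 members 32.1% were lower and 10.7% higher, and of all genes 12.3% and 15.2%. Calls among all genes holding the motif were not counted, and a link between motif and call was not tested. The ETS motif CCGGAAG, searched with its reverse complement CTTCCGG, lay in 16.64% of measured genes with a window, 6 of 11 nucleolar, 5 of 10 splicing and 6 of 9 cytoplasmic helicases. The CCAAT box, CCAAT or ATTGG, lay in 41.74% of measured genes with a window, 5 of 11 nucleolar, 5 of 10 splicing and 5 of 9 cytoplasmic helicases. These are matches of letters, with no measurement of binding.

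The stretches around the E-box of the 3 nucleolar helicases in which it lies before the start are shown because these genes fell and hold the motif close to where transcription begins. Each reads 5′ to 3′ on the gene's strand with CACGTG in capitals, which begins at base -31 from the start of DDX21 (chr10:68956536-68956676, + strand), -22 from that of DDX31 (chr9:132669954-132670085, - strand) and -61 from that of DDX54 (chr12:113185454-113185619, - strand), all on GRCh38.p14 from RefSeq.
DDX21: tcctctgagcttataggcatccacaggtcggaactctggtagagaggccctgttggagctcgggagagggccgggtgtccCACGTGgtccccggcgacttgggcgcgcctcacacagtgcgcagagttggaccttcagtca
DDX31: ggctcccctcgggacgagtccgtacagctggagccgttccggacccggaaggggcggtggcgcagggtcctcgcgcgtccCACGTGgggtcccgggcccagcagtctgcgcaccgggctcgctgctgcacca
DDX54: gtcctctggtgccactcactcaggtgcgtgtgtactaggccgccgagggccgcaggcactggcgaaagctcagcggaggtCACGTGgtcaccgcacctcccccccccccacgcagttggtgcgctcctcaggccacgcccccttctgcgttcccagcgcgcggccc

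Helicases that lie outside the symbol rule and proteins that work with helicases were counted in the same way. Of 18 other helicases listed, 15 were measured: 2 were lower, 2 were higher and 11 did not pass, with a median change of -0.09. That is 13.3% in each direction, close to the 12.3% lower and 15.2% higher of all genes. DICER1, the ribonuclease that makes microRNAs and carries a helicase domain, read 12.12, 11.78 and 11.70 in siPCARNEQ against 12.86, 12.98 and 12.93 in siEGFP, so it fell by 1.06 on the log2 scale (SE 0.12, adjusted p = 0.000722). UPF1, the helicase of nonsense-mediated decay, changed by -0.46 (adjusted p = 0.0106). MOV10 rose by 0.45 (SE 0.12, adjusted p = 0.0277) and DQX1 by 0.39 (SE 0.08, adjusted p = 0.00864), and the MOV10 call was lost without siEGFP array 1, 2 or 3 (adjusted p = 0.0748 to 0.0835).

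Of 34 helicase cofactors listed, 31 were measured: 7 were lower, 2 were higher and 22 did not pass, with a median change of -0.13. That is 22.6% lower and 6.45% higher, beside 12.3% and 15.2% of all genes. NOM1, a nucleolar protein of pre-ribosome assembly, read 8.70, 8.49 and 8.36 in siPCARNEQ against 9.89, 9.94 and 9.79 in siEGFP. It fell by 1.36 on the log2 scale (SE 0.10, adjusted p = 0.000157), with no overlap between groups. GPATCH4, a nucleolar G-patch protein (G-patches activate DEAH-box helicases), read 11.09, 11.08 and 11.07 against 11.60, 11.74 and 11.73, a change of -0.61 (SE 0.07, adjusted p = 0.000774). The other 5 that fell were GEMIN4, which binds DDX20, PINX1, a nucleolar G-patch protein, ALYREF, an mRNA export adaptor, LSM14A, which binds DDX6, and EIF4G1, the scaffold of translation initiation, with changes from -0.78 to -0.25. PDCD4, which blocks the translation helicase EIF4A1, rose by 0.94 (SE 0.09, adjusted p = 0.000363), with all 6 arrays below the array median. CMTR1, an mRNA cap methyltransferase that binds DHX15, rose by 0.22 (adjusted p = 0.0378).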

How the data were processed

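The authors deposited linear intensity per probe set, made with RMA per the submitters' processing notes; the RMA version and genome build were not given in the sources used here. RMA sets all arrays to 1 distribution (sorted log2 values differed by at most 0.0049), so differences in total RNA are out of reach. Here log2 was taken with no pseudocount. Of 54675 probe sets, 62 controls were left out; 41091 were paired with 1 gene, 1801 with several and 11721 with none in the platform annotation. RefSeq updated 0 symbols and did not match 54 single-gene probe sets. The highest-mean probe set represented each of 19775 genes. Groups were compared with lmFit and eBayes (limma 3.58.1, R 4.3.3) on all 6 arrays without covariates. On simulated data this recovered 46 of 100 changes of 0.5 and 84 of 100 changes of 1. Far fewer genes changed there than the 5445 called in the real data, which makes the adjusted threshold stricter. These shares therefore do not give the share of changes missed here. The simulated arrays were drawn independently, without the offset of array 1. Both groups carry array numbers 1 to 3, and deviations from the group means of same-numbered arrays correlated at 0.47, 0.30 and 0.34, so the number was taken to pair arrays, on the data alone, since the labels state no day or batch. Differently numbered arrays 2 and 3 correlated as well (0.37 and 0.24), and array 1 opposed them (-0.31 to -0.44), so the values set array 1 apart and leave a pairing among arrays 2 and 3 unsettled. The block was an alternative. Members, classes and lists were chosen with earlier results of these data known. Values are given for called members with the largest change (up to 6 nucleolar, 5 splicing, 4 cytoplasmic and 3 of any other class), for the highest-mean member of each class, for members that rose against their class, and for up to 3 listed genes per direction with the smallest p. Permutation tests used SciPy 1.17.1 under Python 3.11.15, and figures matplotlib 3.10.9.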

Additional observations from a re-analysis of the deposited data

How the results depend on the processing

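Each count and named change was recomputed under 14 alternatives, and 13 of 34 named changes kept their direction and side of the threshold in all of them that gave a value. Averaging arrays 2 and 3 of a group, which leaves fewer samples, gave 8 members lower and 0 higher. Those 8 were 6 nucleolar, 1 splicing and 1 cytoplasmic helicase. Of the 46 other helicases and cofactors measured, 4 were lower and 1 higher, beside 5.26% and 6.05% of all genes. With this averaging 14 named changes missed the threshold. Arrays 2 and 3 alone gave 25 members lower and 11 higher, and turned DHX9-AS1 to -0.19. They gave 18 of the 46 other helicases and cofactors lower and 7 higher, beside 18.8% lower and 22.8% higher of all genes. Without probe sets whose names end in _s_at, _x_at or _a_at, 45 members were left, of which 13 were lower and 5 higher. In this setting 9 of 11 nucleolar, 1 of 8 splicing and 1 of 8 cytoplasmic helicases were lower. Of the other helicases and cofactors, 5 of 36 were lower, and the share of all genes was not counted. DHX35 was then at 0.022 (adjusted p = 0.918, limma), from another probe set. The mean of all probe sets of a gene moved the median to -0.29 for nucleolar and -0.080 for cytoplasmic helicases. Leaving out 1 array gave 11 to 19 members lower and 2 to 7 higher. It gave 8 to 11 nucleolar (median -0.44 to -0.37), 2 to 3 splicing (-0.14 to -0.02) and 1 to 3 cytoplasmic helicases lower (-0.156 to -0.089). Of the 46 other helicases and cofactors, 7 to 12 were lower and 2 to 5 higher, with 2 higher without siEGFP array 1, 2 or 3. Over all genes, the fits without 1 array given above had 8.38% to 14.5% lower and 10.3% to 17.4% higher. The replicate block kept 31 of 34 named changes on their side of the threshold and brought DHX9 (-0.87), DDX60 (0.39) and DHX30 (0.30) past it, and also DDX52; it lost no call. Where no cause is given above, the cause was not tested. Genes below the array median are limited by signal over background.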
